A study of Mus musculus with 8 samples.

Results

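The genes described here are 44 genes of DNA replication and deoxynucleotide synthesis, taken by symbol from a fixed list. All 44 were found among the 43346 genes of the count table, and all 44 passed the filter on low counts that left 15511 genes for testing. RNA was sequenced from bone fractions enriched for osteocytes, the cells that sit in the mineralized matrix, of C57BL/6 mice aged 12 weeks, with no treatment, transgene or deletion named in the labels. There were 3 libraries from the femur, 3 from the frontal bone and 2 from the parietal bone, numbered 1, 2 or 4 in their labels, and frontal and parietal bone together are called calvaria (5 libraries). The labels do not say whether libraries came from separate animals or pools, or whether libraries of the same number share an animal. Each p-value therefore sets a difference against the spread among libraries alone, part of which may be technical.

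Before a cell copies its DNA, the origin recognition complex (ORC), Cdc6 and Cdt1 load the ring of MCM proteins onto origins, a step called licensing. Cdc45 and the GINS complex turn the MCM ring into a working helicase, DNA polymerase alpha with primase lays down primers, and polymerases delta and epsilon extend them, held by the sliding clamp Pcna that replication factor C (RFC) loads. Ribonucleotide reductase, thymidylate synthase and thymidine kinase supply the building blocks. Mature osteocytes are regarded as non-dividing cells, while marrow holds many dividing precursors of blood cells.

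Library totals ran from 6259229 to 13461622 counts. The osteocyte labels could be checked against 11 osteocyte markers, whose summed level was 26000 to 52600 CPM (counts scaled to library size) in femur and 1840 to 2810 CPM in calvaria. Dmp1, a defining osteocyte matrix gene, was at 19500 to 43500 CPM in femur and 355 to 611 CPM in calvaria. Blood markers moved the other way. The 15 erythroid markers summed to 13200 to 30400 CPM in femur and 68000 to 111000 CPM in calvaria, and the 13 granulocyte markers to 19300 to 48200 and 63200 to 94400 CPM.

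Promoter sequences were read for 37 of the 44 genes from RefSeq windows on GRCm38.p6, each from 250 bases before to 50 bases after the annotated start. E2F factors, the classical regulators of S phase genes, bind letters of the type TTTGGCG. These letters and 3 close forms were searched, TTTCCCG being one, TTTCGCG another and TTTGCCG the last, on both strands, with overlapping matches counted each. At least 1 match lay in 19 of the 37 windows (51.4%), against 6.85% of the 27025 genes of the table and 8.94% of the 14604 genes whose windows had a similar GC content. At least 2 matches lay in 7 of the 37 windows (18.9%), against 0.466% of all genes. By role, matches were found in 6 of 8 helicase, 5 of 7 polymerase, 4 of 8 licensing, 3 of 5 RPA and joining, 1 of 5 clamp and 0 of 4 nucleotide supply windows. CCAAT lay in 59.5% of the members' windows against 37.9% of all genes, and in 8 of 8 helicase windows. GGGCGG, a Sp1-type box, lay in 73% against 35.9%. Among the genes whose windows had a similar GC content, the shares were 38.4% for CCAAT and 43.3% for GGGCGG. A match describes letters only and shows no binding.

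The 160 bases before the start are printed for 6 genes, 5′ to 3′ on the gene's own strand, with E2F-type letters in capitals. Mcm5, Mcm6 and Pola1 show matches before the start, Mcm2 and Rrm2 had the largest differences between frontal and parietal bone and show none, and Cdt1 was the one member lower in calvaria. They lie at chr8:75109349-75109508 (plus strand, Mcm5), chr1:128359706-128359865 (minus strand, Mcm6), chrX:93632156-93632315 (minus strand, Pola1), chr6:88898781-88898940 (minus strand, Mcm2), chr12:24708094-24708253 (plus strand, Rrm2) and chr8:122567855-122568014 (plus strand, Cdt1), upstream of the RefSeq start.
Mcm5: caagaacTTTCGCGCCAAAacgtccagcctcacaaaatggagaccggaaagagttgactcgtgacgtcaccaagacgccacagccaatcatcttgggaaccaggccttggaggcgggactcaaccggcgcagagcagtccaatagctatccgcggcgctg
Mcm6: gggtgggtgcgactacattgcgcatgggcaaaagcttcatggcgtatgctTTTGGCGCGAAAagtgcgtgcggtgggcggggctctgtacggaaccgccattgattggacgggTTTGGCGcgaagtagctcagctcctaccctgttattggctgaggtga
Pola1: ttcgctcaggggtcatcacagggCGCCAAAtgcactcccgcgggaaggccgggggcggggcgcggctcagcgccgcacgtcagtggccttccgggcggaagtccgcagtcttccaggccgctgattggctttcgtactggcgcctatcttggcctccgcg
Mcm2: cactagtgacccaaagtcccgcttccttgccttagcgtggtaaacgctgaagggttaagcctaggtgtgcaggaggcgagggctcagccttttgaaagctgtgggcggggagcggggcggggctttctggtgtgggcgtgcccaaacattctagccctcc
Rrm2: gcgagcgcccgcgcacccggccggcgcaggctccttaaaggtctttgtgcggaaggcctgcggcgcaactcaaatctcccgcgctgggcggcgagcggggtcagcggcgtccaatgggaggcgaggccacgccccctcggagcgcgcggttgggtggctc
Cdt1: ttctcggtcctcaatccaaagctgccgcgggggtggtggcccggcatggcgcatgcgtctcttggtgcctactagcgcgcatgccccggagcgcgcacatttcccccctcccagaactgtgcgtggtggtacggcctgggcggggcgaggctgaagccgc
In Mcm5 a match on the plus strand, beginning 153 bases before the start, overlaps one on the minus strand. In Mcm6 a like pair begins 110 bases before the start and the other match begins 47 bases before it. The Cdt1 window holds 2 matches. The first begins at position -3 and runs across the start, and the other begins at +33. Neither lies wholly in the printed stretch, so neither is in capitals.

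The first comparison asks how calvarial and femoral fractions differ. Replication genes were higher in calvaria across every role. Of the 44 genes, 40 were higher in calvaria than in femur, 1 (Cdt1) was lower and 3 (Orc4, Pold1 and Pold2) were not called, at an adjusted p under 0.05 from edgeR's quasi-likelihood test over all genes. Among all genes tested, 29.6% were called higher and 31.4% lower (61.0% in all). The median log2 fold change was 1.31 over the 44 genes and 0.01 over all genes tested. In 39 of the 44 genes every calvarial library lay above every femur library, which was so for 26.0% of all genes. Summed over the 44 genes, the level was 1510, 1750 and 2020 CPM in femur, 4690, 4480 and 5290 CPM in frontal bone, and 4110 and 3970 CPM in parietal bone, so the groups did not overlap and the mean was 2.56-fold higher in calvaria. In bulk libraries, fewer cells of a type and less RNA per cell cannot be told apart. The blood markers given above rose in calvaria as well, and their part in these differences was not tested.

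Each calvarial bone was also set against the same femur libraries. In frontal bone 41 genes were higher and 0 lower (27.2% and 28.5% of all genes, 55.7% in all), with a median log2 fold change of 1.45. Orc4, Cdt1 and Pold1 did not pass there. In parietal bone 39 were higher and 1, Cdt1, was lower (27.1% and 28.6% of all genes, 55.7% in all), with a median of 1.19. Orc4, Pold1, Pold2 and Fen1 did not pass there.

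**Figure D1:**
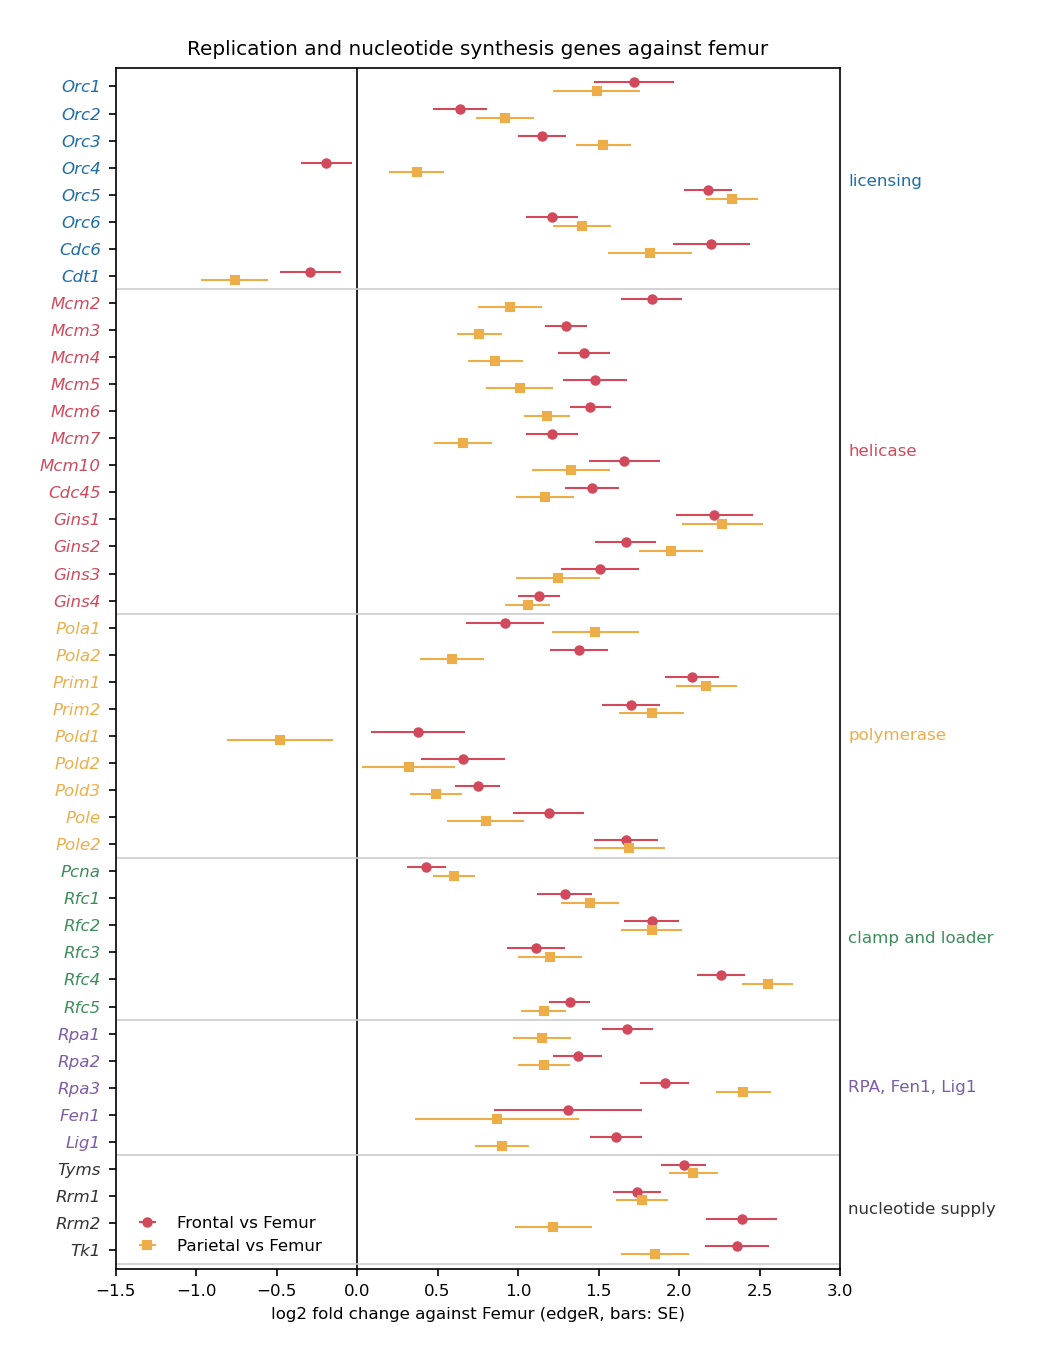
Log2 fold change of each of the 44 genes against femur, in frontal (red circles) and parietal bone (yellow squares), with standard errors from edgeR; genes are ordered by role. Nearly all points lie right of 0, with Cdt1, Orc4 and Pold1 near or left of it.

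Licensing genes split. Of 8 genes, 6 were higher in calvaria (29.6% of all genes), with a median log2 fold change of 1.32 over the 8. Orc5, an ATPase-family subunit of the origin recognition complex, was at 11, 9.91 and 10.3 CPM in femur, at 45.9, 42.8 and 52.1 CPM in frontal and at 49.2 and 55.3 CPM in parietal bone. Every calvarial library lay far above every femur library, and the log2 fold change was 2.25 (SE 0.14, adjusted p = 2.33e-07, edgeR). Orc1, the ATPase subunit that varies through the cell cycle, was at 4.13 to 8.75 CPM in femur and 17.6 to 25.4 CPM in calvaria (log2 fold change 1.60, SE 0.23). Orc3 and Orc6, with log2 fold changes of 1.34 and 1.30, rose as well, as did Orc2 (0.78, SE 0.15). Exons of Orc2 share 29.8% of their length with Nif3l1 on the opposite strand, and the strand setting of the counts is not known.

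Orc4 stood apart from the other ORC subunits. It was at 72.2, 68.1 and 55.0 CPM in femur, 47.7, 64.8 and 58.3 CPM in frontal and 91.0 and 77.3 CPM in parietal bone. Frontal and femur libraries overlapped and parietal libraries lay above both. The log2 fold change for calvaria was 0.09 (SE 0.14, adjusted p = 0.6).

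The MCM loaders Cdc6 and Cdt1 moved in opposite directions. Cdc6, the ATPase that recruits the MCM ring to ORC, was at 13.6, 16.9 and 30.6 CPM in femur, 92.7, 86.5 and 103 CPM in frontal and 71.0 and 73.5 CPM in parietal bone (log2 fold change 2.01, SE 0.23, adjusted p = 1.46e-05). Its groups did not overlap. Frontal lay above parietal bone, though that difference was not called (log2 0.38, SE 0.25, adjusted p = 0.343, edgeR). Cdt1, the partner that delivers the ring, was at 34.0, 35.9 and 41.2 CPM in femur, 33.6, 35.1 and 21.8 CPM in frontal and 21.8 and 21.9 CPM in parietal bone. Frontal library 2 lay within the femur range, frontal library 1 just under it, and frontal library 4 and both parietal libraries well below it, and the log2 fold change was -0.53 (SE 0.17, adjusted p = 0.0162). That call was lost without femur library 4 (-0.45, adjusted p = 0.0593), with scaling by library size only (-0.43, adjusted p = 0.0583) and with upper-quartile factors (-0.36, adjusted p = 0.077). The ratio of Cdt1 to Cdc6 CPM, not corrected for gene length, was 1.35 to 2.5 in femur and 0.212 to 0.406 in calvaria. Gmnn, which encodes the Cdt1 inhibitor geminin, was higher in calvaria (log2 fold change 1.94, SE 0.20).

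**Figure D2:**
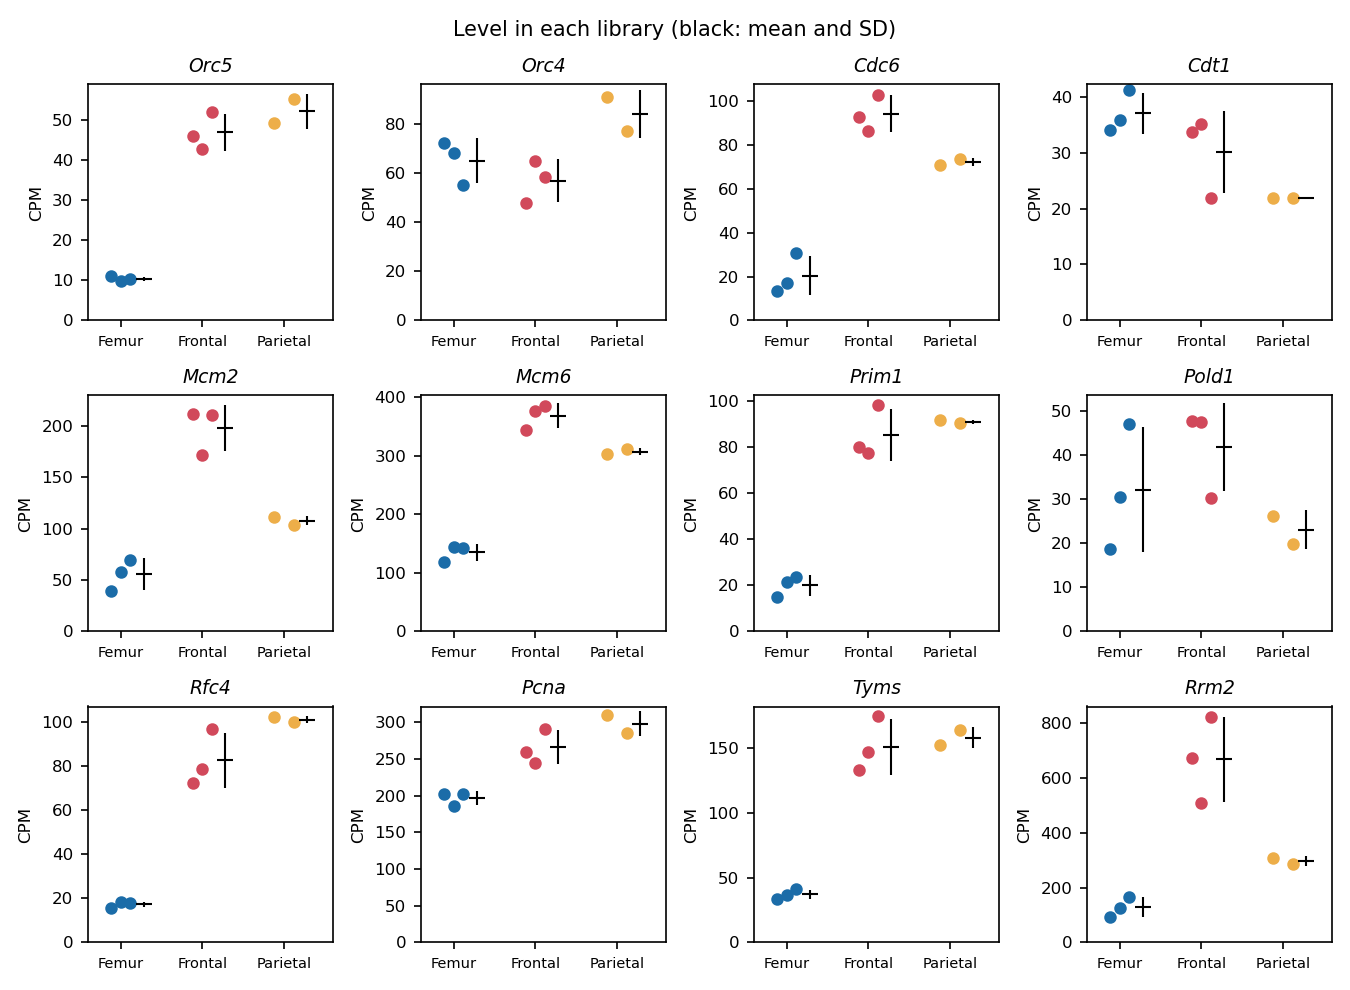
Level of 12 genes in every library in CPM (coloured points) with the mean and SD of each bone in black; axes start at 0. Orc5, Cdc6, Mcm2, Mcm6, Prim1, Rfc4, Tyms and Rrm2 show calvarial libraries far above femur, Pcna a smaller gap, and Orc4, Cdt1 and Pold1 overlapping groups.

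All 12 helicase genes were higher in calvaria (29.6% of all genes), with log2 fold changes from 0.93 to 2.25 and a median of 1.31. None of the 12 overlapped between calvaria and femur, with 26.0% of all genes higher without overlap. The MCM ring has 6 subunits. Mcm2 was at 39.2, 57.6 and 70.0 CPM in femur, 212, 172 and 211 CPM in frontal and 111 and 104 CPM in parietal bone, so the 3 bones did not overlap (calvaria against femur log2 fold change 1.39, SE 0.18, adjusted p = 3.52e-05). Mcm6 was at 118, 144 and 143 CPM in femur, 344, 376 and 384 CPM in frontal and 303 and 311 CPM in parietal bone (1.31, SE 0.12, adjusted p = 2.39e-06). Mcm3, Mcm4, Mcm5 and Mcm7 had log2 fold changes of 1.03, 1.13, 1.24 and 0.93. The 6 subunits are needed in equal number in the ring. Per exon length their femur levels ran from 7.99 (Mcm2) to 28.9 (Mcm6) and their calvarial levels from 23.3 to 73.6 RPKM (CPM per kilobase of exon), with Mcm2 lowest and Mcm6 highest in both. That length takes in every annotated exon, 6956 bases for Mcm2 against 3589 to 4666 for the other subunits. In mean calvarial CPM Mcm2 (162) lay above Mcm3 (159) and Mcm4 (139), so its lowest place in calvaria depends on the length used.

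The factors that activate the ring rose with it. Cdc45, the helicase cofactor, was at 21.0, 25.2 and 33.1 CPM in femur and 58.9 to 80.9 CPM in calvaria (log2 fold change 1.31, SE 0.16). Mcm10, an activator of the loaded helicase, was at 10 to 17 CPM in femur and 28.6 to 45.8 CPM in calvaria (1.49, SE 0.21). Among the GINS subunits, Gins1 was at 4.13, 5 and 7.7 CPM in femur, 24.0, 23.6 and 32.2 CPM in frontal and 27.6 and 27.3 CPM in parietal bone (2.25 on the log2 scale, SE 0.22, adjusted p = 5.58e-06). Gins2, Gins3 and Gins4 had log2 fold changes of 1.81, 1.38 and 1.09. The Gins2 value is uncertain, since 67.3% of its exon length overlaps Gse1 on the opposite strand.

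Polymerase genes were mixed as well. Of 9 genes, 7 were higher in calvaria (29.6% of all genes), with a median log2 fold change of 1.00 and a range from -0.05 to 2.12. The primase pair led: Prim1, the catalytic subunit, was at 15.1, 21.4 and 23.6 CPM in femur, 80.0, 77.5 and 98.4 CPM in frontal and 91.7 and 90.4 CPM in parietal bone (log2 fold change 2.12, SE 0.16, adjusted p = 8.85e-07). Prim2, its large partner, was at 11.9 to 17.0 CPM in femur and 40.3 to 58.1 CPM in calvaria (1.77, SE 0.17). The polymerase alpha subunits Pola1 and Pola2, which join primase in 1 complex, rose less, with log2 fold changes of 1.20 (SE 0.23) and 0.99 (SE 0.17). Pola1 varied within frontal bone, at 42.1, 85.7 and 47.2 CPM, and frontal library 2 lay within the parietal range of 79.8 to 92.6 CPM.

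Of the polymerase delta subunits, only Pold3 passed the test (log2 fold change 0.62, SE 0.13). Pold1, the catalytic subunit, was at 18.7, 30.4 and 47 CPM in femur, 47.7, 47.4 and 30.3 CPM in frontal and 26.1 and 19.9 CPM in parietal bone. The femur libraries spanned nearly the whole range of the other bones, and the log2 fold change was -0.05 (SE 0.26, adjusted p = 0.871). Pold2, the second subunit, was at 8.21 to 15.4 CPM in femur and 11.2 to 20.6 CPM in calvaria (0.49, SE 0.24, adjusted p = 0.0924). Of polymerase epsilon, the catalytic Pole had a log2 fold change of 1.00 (SE 0.20) and its partner Pole2 one of 1.68 (SE 0.19).

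Transcript base composition went with the exceptions Pold1, Pold2 and Cdt1, but not with Orc4. Pold1, Pold2 and Cdt1 have the highest GC contents of the 44 genes, at 61%, 58.7% and 57.8% of the longest transcript, while Orc4, at 36.8%, is among the lowest. Over the 44 genes the calvaria-femur log2 fold change had a Spearman correlation of -0.35 with transcript GC content, and over 15435 genes tested one of -0.20. Genes share libraries and are not independent. With the GC and length trend of each library removed, a setting chosen after seeing the data, Pold1 was at 0.94 (adjusted p = 0.00285) and Pold2 at 0.78 (adjusted p = 0.00631), both higher in calvaria, and Cdt1 at -0.03 (adjusted p = 0.872). Orc4 was at 0.04 (adjusted p = 0.784) in the same fit. The count was then 41 genes higher and 0 lower.

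The sliding clamp and its loader were higher in calvaria in 6 of 6 genes (29.6% of all genes), but by very different amounts. Rfc4, a small subunit of the loader (gene ENSMUSG00000022881, chr16:23113943-23127737 on GRCm38), had the largest rise of the 44 genes. It was at 15.6, 18.1 and 17.7 CPM in femur, 72.4, 78.5 and 96.6 CPM in frontal and 102 and 99.7 CPM in parietal bone, 5.23-fold higher in calvaria on means (log2 fold change 2.40, SE 0.14, adjusted p = 1.3e-07). An exon of Eif4a2 on the opposite strand covers 12.7% of its exon length. Rfc2 had a log2 fold change of 1.83 (SE 0.16), and the large subunit Rfc1, Rfc5 and Rfc3 had 1.37, 1.24 and 1.16.

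Pcna, the clamp itself, had the smallest rise of the members called higher. It was at 202, 186 and 203 CPM in femur, 260, 245 and 291 CPM in frontal and 310 and 286 CPM in parietal bone, without overlap (log2 fold change 0.51, SE 0.11, adjusted p = 0.0015). With the GC and length trend removed the log2 fold change was 0.03 (adjusted p = 0.784). Pcna also acts in DNA repair in non-dividing cells. It had the highest femur level per exon length of the 44 genes, 82.1 RPKM, and was second in calvaria, at 116 RPKM. The ratio of Pcna to Rfc4 CPM, not corrected for length, was 10.3 to 12.9 in femur and 2.87 to 3.59 in calvaria. The processed copies Pcna-ps1 and Pcna-ps2 leave the Pcna count somewhat uncertain.

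The genes that coat single-stranded DNA and join fragments were higher in calvaria in 5 of 5 (29.6% of all genes). Rpa3, the smallest subunit of the coating protein RPA, was at 16.5, 17.1 and 19.8 CPM in femur, 62.6, 59.2 and 79.8 CPM in frontal and 95.4 and 93.2 CPM in parietal bone, without overlap (log2 fold change 2.16, SE 0.15, adjusted p = 3.65e-07). The difference between frontal and parietal bone was not called (log2 -0.49, adjusted p = 0.0739, edgeR). With the GC and length trend removed it was 0.29. Rpa1 and Rpa2, the larger subunits, had log2 fold changes of 1.41 (SE 0.15) and 1.26 (SE 0.14). Lig1, the ligase that seals lagging strand fragments, was at 28.4, 33.3 and 41.4 CPM in femur, 112, 90.6 and 112 CPM in frontal and 64.9 and 63.8 CPM in parietal bone (1.25, SE 0.15, adjusted p = 2.01e-05). Fen1, the nuclease that trims the flaps before ligation, was nearly uncounted, with 9, 5 and 22 reads in the femur libraries and 27 to 38 in the calvarial ones. Its log2 fold change was 1.09 (SE 0.43, adjusted p = 0.0447). The call was lost when any single femur or frontal library other than femur 4 was left out (adjusted p = 0.0558 to 0.175, edgeR). Leaving out any 1 library other than femur 4, the log2 fold change was 0.97 to 1.17, except without femur 2 (0.58). Of the exon length of Fen1, 78.8% overlaps the antisense gene Gm10143.

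Nucleotide supply was the role with the highest median, 1.93, and 4 of 4 genes were higher in calvaria (29.6% of all genes). Tyms, the thymidylate synthase, was at 33.7, 36.3 and 41.1 CPM in femur, 133, 147 and 175 CPM in frontal and 152 and 164 CPM in parietal bone (log2 fold change 2.06, SE 0.14, adjusted p = 2.95e-07). Tk1, the thymidine kinase of the salvage route, was at 15.5, 23.3 and 29.4 CPM in femur, 117, 104 and 132 CPM in frontal and 82.3 and 82.6 CPM in parietal bone (2.10, SE 0.19, adjusted p = 2.69e-06). Rrm1, the large subunit of ribonucleotide reductase, was at 91.3, 116 and 132 CPM in femur, 339, 405 and 391 CPM in frontal and 387 and 386 CPM in parietal bone (1.76, SE 0.14). Frontal minus parietal log2 differences were -0.06 (SE 0.15) for Tyms, -0.03 (SE 0.16) for Rrm1 and 0.51 (SE 0.21, adjusted p = 0.137, edgeR) for Tk1. Tk1 was higher in each frontal than in each parietal library, as were 21.9% of all genes. The processed copy Tyms-ps leaves the Tyms count somewhat uncertain.

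Rrm2, the small subunit of the reductase that is made in S phase (gene ENSMUSG00000020649, chr12:24708241-24714146 on GRCm38), was at 91.8, 126 and 165 CPM in femur, 675, 510 and 822 CPM in frontal and 309 and 285 CPM in parietal bone. The 3 bones did not overlap (calvaria against femur log2 fold change 1.80, SE 0.21, adjusted p = 1.64e-05). Per exon length it was the highest of the 44 genes in calvaria, at 188 RPKM, and second in femur, at 46.1 RPKM. The ratio of Rrm2 to Rrm1 CPM, not corrected for length, was 1.01 to 1.25 in femur, 1.26 to 2.1 in frontal and 0.738 to 0.798 in parietal bone.

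Frontal and parietal bone were then compared with each other. Of the 44 genes, 5 were higher in frontal bone and 0 lower, where 3.91% of all genes were called higher and 3.29% lower (7.21% in all). The 5 were Rrm2 (log2 fold change 1.17, SE 0.25, adjusted p = 0.0306), Mcm2 (0.88, SE 0.21, adjusted p = 0.0366), Pola2 (0.79, SE 0.20, adjusted p = 0.0409), Lig1 (0.71, SE 0.17, adjusted p = 0.0394) and Mcm3 (0.54, SE 0.14, adjusted p = 0.0421). Pola2 was at 46.6, 40.4 and 52.0 CPM in frontal and 27.1 and 26.5 CPM in parietal bone, and Mcm3 at 191, 175 and 181 against 125 and 125 CPM. Without overlap of libraries, 17 of the 44 were higher and 7 lower in frontal bone, against 21.9% and 25.6% of all genes. Those higher included all 6 MCM ring subunits, and those lower were Orc2, Orc3, Orc4, Gins2, Rfc1, Rfc4 and Rpa3. None of the 5 calls held under every other setting of scaling, filter, tool and left-out library. By edgeR 0 of the 44 were called without femur 2, frontal 1 or frontal 4, with 10 to 13 at an unadjusted p under 0.05 (14 with all libraries). Called were 10 without femur 1, 9 without frontal 2 and 8 without femur 4. Fits without parietal 2 or parietal 4 leave 1 parietal library, so only their fold changes are given. Calls over all genes rose from 1118 to 1714 without femur 1, 1963 without frontal 2 and 1496 without femur 4. They fell to 0 without femur 2 or frontal 1 and to 518 without frontal 4. Without femur 2, frontal 1, frontal 4, parietal 2 or parietal 4, log2 fold changes were 1.04 to 1.26 for Rrm2 and 0.84 to 0.96 for Mcm2. They were 0.74 to 0.84 for Pola2, 0.66 to 0.75 for Lig1 and 0.51 to 0.59 for Mcm3. The reason for the lost calls was not tested. DESeq2 called 11 of the 44 and 2225 of all genes.

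The differences between frontal and parietal bone went with base composition. Over the 44 genes, the log2 fold change had a Spearman correlation of 0.69 with transcript GC content, and 0.36 over 15435 genes tested. The genes with the lowest GC content, Rpa3 (34.2%) and Orc4 (36.8%), had log2 fold changes of -0.49 and -0.56. Pold1, with the highest, had 0.86. With the GC and length trend removed, 1 of the 44 genes, Rrm2, was called (adjusted p = 0.0421), and Mcm2, Pola2, Lig1 and Mcm3 were at 0.62, 0.74, 0.42 and 0.30 (adjusted p = 0.0916 to 0.206).

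**Figure D3:**
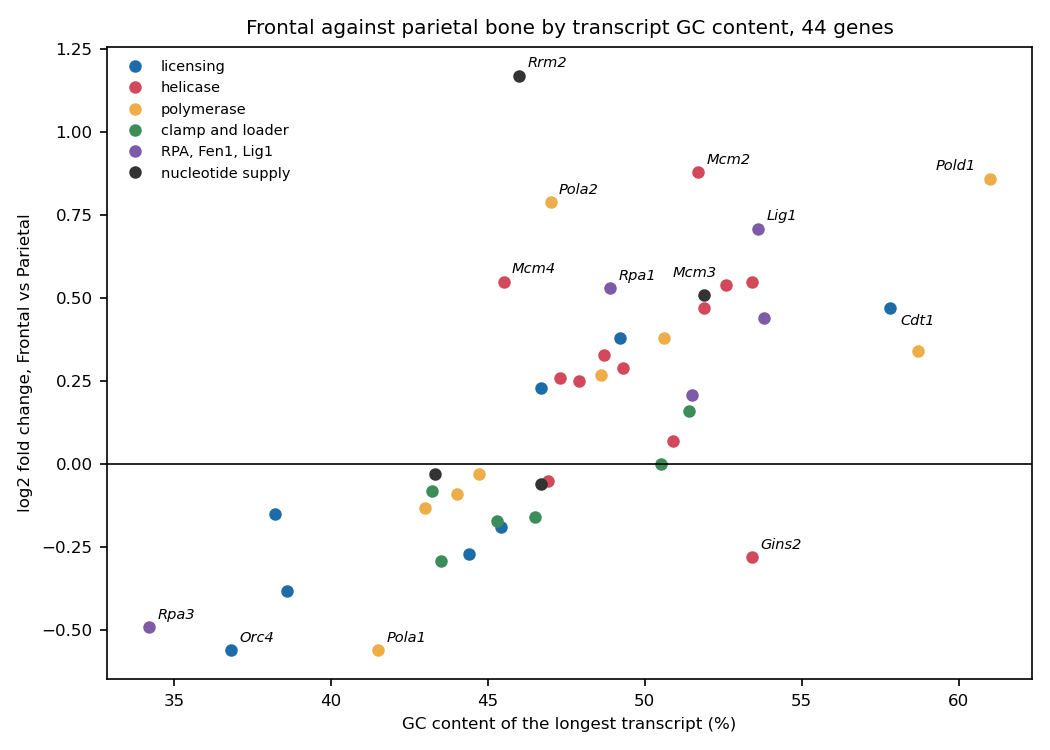
Log2 fold change between frontal and parietal bone for the 44 genes (vertical axis) against the GC content of each gene's longest transcript in percent (horizontal axis), coloured by role. AT-rich genes such as Rpa3 and Orc4 lie below 0, GC-rich genes such as Pold1, Lig1 and Mcm2 above it, and Rrm2, at 46% GC, lies highest.

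Other genes of the pathway were taken from lists that are given here whole by count. Of 112 genes in 6 lists, 81 were higher and 7 lower in calvaria than in femur. The shares over all genes tested were 29.6% higher and 31.4% lower. In the list of other initiation factors 10 of 13 were higher and 0 lower. Besides Gmnn these included Dbf4 and Cdc7, the activating subunit and kinase of the complex that fires origins (log2 fold changes 1.36, SE 0.14, and 1.17, SE 0.19), and Wdhd1, which ties polymerase alpha to the helicase (1.39, SE 0.19). Of 22 other fork genes 17 were higher and 0 lower, led by Tipin, a fork protection factor (1.91, SE 0.14), Rnaseh2b and Rnaseh2a of the RNase H2 complex (2.03, SE 0.16, and 1.30, SE 0.17) and Tonsl, a repair factor at stalled forks (1.34, SE 0.15). Of 8 genes for chromatin assembly behind forks 7 were higher, led by the histone chaperone Asf1b (1.79, SE 0.21), with Slbp (0.73), Asf1a (0.77) and Chaf1b (1.01).

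Nucleotide metabolism beyond the 4 members was divided. Of 31 genes 22 were higher and 4 lower (29.6% and 31.4% of all genes). The higher ones included Dtymk, the thymidylate kinase (log2 fold change 1.86, SE 0.14), Paics of purine synthesis (1.20, SE 0.10) and Dctpp1, which clears modified dCTP (1.79, SE 0.16). The 4 lower ones were Impdh1 (-1.33, SE 0.19) and Impdh2 (-0.86, SE 0.12), which start guanine nucleotide synthesis, the CTP synthase Ctps (-0.81, SE 0.13) and Shmt2, a mitochondrial enzyme of one-carbon metabolism (-0.55, SE 0.13).

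Among 24 regulators of the E2F and RB axis, 11 were higher and 3 lower (29.6% and 31.4% of all genes). Ccne1 and Ccne2, the E cyclins that open S phase, had log2 fold changes of 1.90 (SE 0.19) and 1.67 (SE 0.14), and the RB relative Rbl1 1.49 (SE 0.19). The 3 lower were Cdkn1a, the cell cycle inhibitor p21 (-2.40, SE 0.12, adjusted p = 5.43e-08), E2f5, a repressive E2F factor (-0.95, SE 0.18), and the D cyclin Ccnd2 (-0.63, SE 0.11). All 14 mitosis genes were higher, led by Ccnb1 (2.23, SE 0.14), Cdk1 (1.93, SE 0.18), Birc5 (2.25, SE 0.23) and Ccna2 (1.87, SE 0.21). Between frontal and parietal bone 13 of the 112 were higher in frontal bone and 2 lower (3.91% and 3.29% of all genes).

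Marker lists of the cells that a bone fraction could hold moved as follows between calvaria and femur. The shares over all genes tested were 29.6% higher and 31.4% lower in calvaria. All 15 erythroid markers, 10 of 13 granulocyte, 9 of 10 B cell, 6 of 8 T and NK cell, 6 of 8 monocyte and macrophage, 4 of 7 osteoclast and 3 of 6 megakaryocyte markers were higher, 1 monocyte and macrophage marker was lower, and none of these markers was at 0 in any library. Their summed levels were 3.76-fold (erythroid), 2.36-fold (granulocyte), 3.20-fold (B cell), 3.08-fold (T and NK cell), 3.22-fold (monocyte and macrophage), 1.83-fold (osteoclast) and 2.06-fold (megakaryocyte) those of femur. Sums weigh the most abundant markers most. In the same order, the median log2 fold changes of the markers were 1.80, 1.30, 1.61, 1.79, 0.65, 0.92 and 0.54. The osteoclast sums (1080 to 2450 CPM in femur, 2010 to 4060 CPM in calvaria) and the megakaryocyte sums (554 to 1270 and 1110 to 2270 CPM) overlapped between bones. Of 6 stem and progenitor markers 3 were higher and 1 lower, and their sum was 183 to 246 CPM in femur and 180 to 268 CPM in calvaria, with overlap. Lower in calvaria were 8 of 11 osteocyte (2 were higher), 6 of 9 osteoblast, 6 of 6 endothelial and 4 of 4 tested chondrocyte markers. Muscle, adipocyte and neural lists had 2, 3 and 3 tested markers, of which 1, 2 and 2 were higher. Within the femur, library 1 had the lowest summed level of the 44 genes (1510 CPM), of mitosis genes (592 CPM) and of erythroid markers (13200 CPM). Femur library 4 had the highest of each (2020, 1010 and 30400 CPM). Within calvaria, frontal library 4 had the highest of each (5290, 3000 and 111000 CPM), but the lowest library differed. It was parietal 4 for the 44 genes (3970 CPM), parietal 2 for mitosis genes (2470 CPM) and frontal 2 for erythroid markers (68000 CPM). The part of cell makeup in the levels of the 44 genes was not tested.

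**Figure D4:**
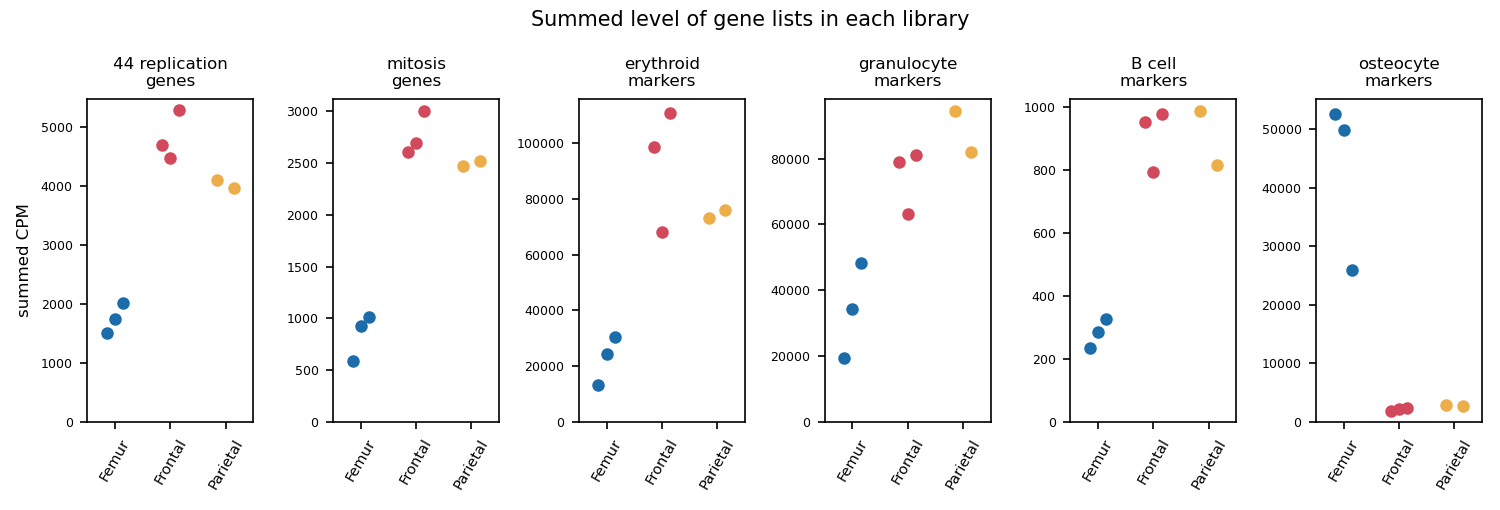
Summed CPM in each library of the 44 replication genes, 14 mitosis genes and the marker lists of 4 cell types; each panel has its own axis from 0. Replication, mitosis, erythroid, granulocyte and B cell sums are higher in all calvarial than in all femur libraries, and osteocyte marker sums are lower.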

How the data were processed

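RNA from 8 libraries (3 femur, 3 frontal, 2 parietal) was sequenced as paired ends of 37 bases after Nextera XT library preparation, per the labels' protocols. The authors deposited raw counts per gene, which were used here. The table has 43438 rows. Spike-in controls take up 92 of them (0.0286 to 0.176% of a library's gene counts) and were left out throughout. A filtered copy and a scaled CPM table, also deposited, were not used. Per the submitters' processing notes, the tools included STAR 2.5.2a, edgeR, limma and DESeq2, and mm10 and GRCm38.p3 are the builds listed. Which program counted reads, on which annotation and with what strand setting, is not given in the sources used here, so overlapping genes on opposite strands cannot be told apart.

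The test was that of edgeR 4.0.16 under R 4.3.3 (filterByExpr, TMM, robust quasi-likelihood, bones as 3 groups, 5 residual degrees of freedom, biological coefficient of variation 18.6%). Benjamini-Hochberg adjustment ran over 15511 genes, and a gene was called at an adjusted p under 0.05. SE is the log2 fold change over the root of its F statistic. CPM is on the TMM scale. RPKM divides it by the exon length of GENCODE M21 (GRCm38), which may differ from the annotation used for counting. No pair of libraries of 1 bone agreed within sampling noise. On simulated counts over 15511 genes, 74% of 2-fold and 98% of 4-fold changes were recovered for calvaria against femur, and 50% and 98% for frontal against parietal bone. There 100 genes were changed at each fold and all genes had the same coefficient of variation. In the data 61.0% of genes were called for calvaria against femur, so these shares need not hold for them.

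The 44 genes, the pathway lists and the marker lists were chosen with earlier results of these data known. Of each pathway list, up to 4 genes with the smallest p for calvaria against femur and any gene called against the list's majority are named. Some genes of the lists are not reported here by name. Alternatives were DESeq2 1.42.0, limma-voom (limma 3.58.1), other scalings and filters, a replicate block, leaving out each library and, added after seeing the data, removal of each library's trend with transcript GC content and length.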

Additional observations from a re-analysis of the deposited data

Results flagged for a closer look

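The fold change against femur differed between frontal and parietal bone, by the direct test of frontal against parietal libraries (edgeR), in 5 of the 44 genes: Mcm2 by 0.88, Mcm3 by 0.54, Pola2 by 0.79, Lig1 by 0.71 and Rrm2 by 1.17 on the log2 scale, higher in frontal bone in each case. Of all genes tested, 3.91% were called higher in frontal bone. In all 5, each of 3 frontal libraries lay above both parietal libraries, which was so for 21.9% of all genes. The 5 were picked by a test on these same libraries, so this adds no separate support. In 2 genes 1 of the 5 calvarial libraries lay far from the others by Dixon's ratio, the gap to the nearest library over the whole range. Pole in frontal library 2 was at 27.1 CPM against 15.3 to 17.8 CPM in the other calvarial libraries (ratio 0.788). Rrm1 in frontal library 1 was at 339 CPM against 386 to 405 CPM (ratio 0.712). Chance alone gives such a ratio in about 1 in 20 groups, and 44 genes were examined.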

How the results depend on the processing

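Of the 41 members called for calvaria against femur, 39 held under all 17 other settings of scaling, filter, tool, replicate block and left-out library. Cdt1 and Fen1 did not. For frontal against femur 39 of 41 held and for parietal against femur 35 of 40. Frontal against parietal bone was unstable. Its 1118 genes and 5 members became 2225 and 11 with DESeq2, 1904 and 9 without a filter beyond 1 count, 97 and 1 after removing the length and GC trend, and, leaving out 1 library at a time, 0 to 1963 genes and 0 to 10 members. The labels do not say what the replicate numbers mark. Deviations of libraries with the same number correlated at -0.10 to 0.14. With so few libraries a bone, these correlations cannot tell whether libraries of the same number share an animal. With the replicate block, 0 genes and 0 members were called by edgeR between frontal and parietal bone (3504 genes and 14 members at an unadjusted p under 0.05), while members called against femur were 41 for calvaria, 40 for frontal and 38 for parietal bone. The cause of these changes was not tested. Scaling by library size alone made 75.6% of the genes called between frontal and parietal bone higher, against 54.3%. It moved the median gene of calvaria against femur to 0.107, and upper-quartile factors to 0.185, from 0.012.

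Against femur, and among the 11 members called by edgeR or DESeq2 between frontal and parietal bone, directions turned in these cases, in log2 fold change. Pold1 for calvaria against femur was 0.00 by limma-voom, 0.12 with upper-quartile factors, 0.03 with library size only, 0.94 with the length and GC trend removed, 0.32 without femur 4, 0.02 without frontal 4 and 0.02 without parietal 4, with a range from -0.34 to 0.32 over the left-out libraries. Orc4 was -0.02 without femur 4 and up to 0.15 without another library. With the length and GC trend removed, Cdt1 was 0.06 for frontal against femur, Pold1 0.66 for parietal against femur and Rpa3 0.29 for frontal against parietal bone. Pold2 for parietal against femur was -0.07 without parietal 2 and up to 0.60 without another library. Over all 44 members, the sign of the frontal-parietal difference turned in 11 with the length and GC trend removed, 5 with library size only, 5 with the replicate block, 3 without a filter beyond 1 count and 0 to 5 when 1 library was left out. Fen1 had 5 to 38 counts a library, the fewest of the 44.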
